A study of Mus musculus with 4 samples.

Results

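The cells described here are thymic iNKT1 cells that carried transcripts of several Ly49 receptor genes at once. A barcode was a member when it held UMIs (unique molecular identifiers, 1 per captured transcript) of at least 3 of the 6 genes Klra1, Klra5, Klra6, Klra7, Klra9 and Klra10. It also had to hold Nkg7, a granule gene of iNKT1 cells, and no Cd79a or Rag1, which mark B cells and immature thymocytes. It could show at most 2 of 6 interferon genes and at most 2 of 7 mitosis genes. The rule found 4733 members, which were 15.5% of all 30455 barcodes and 20.1% of the 23532 Nkg7-positive cells that met every other term. By library the members numbered 792 in WT 1, 2244 in WT 2, 514 in ACC1 KO 1 and 1183 in ACC1 KO 2. Because the rule used the Ly49 counts themselves, the levels of these 6 genes in members are given below as a description and are not tested against other cells. A cell with 2 of the 6 genes, just outside the rule, held a mean of 8.84, 10.7, 9.92 and 10.2 Ly49 UMIs by library; library values are always listed as WT 1, WT 2, ACC1 KO 1, ACC1 KO 2. A cell with 3 genes, just inside it, held 13.3, 15.5, 14.7 and 15.4.

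The study profiled invariant NKT (iNKT) cells, a T cell lineage that sees lipids held by CD1d, from the thymus of wild-type mice and of ACC1 knockout mice. ACC1, encoded by Acaca on chromosome 11, is the enzyme that commits acetyl-CoA to the making of fatty acids, and the series title ties it to the survival of these cells. All mice were 6 to 8 weeks old, and in both genotypes the cells were enriched on magnetic beads with the CD1d tetramer before CD3+ tetramer+ cells were sorted for 10x 3′ libraries. There were 2 libraries per genotype. Strain, allele, the promoter of any Cre, the exons removed and the number of mice behind each library were not given in the labels, so p-values measure only the spread between these libraries.

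Ly49 receptors are lectin-like proteins of the cell surface, encoded by the Klra genes, that bind MHC class I molecules. They are best known from natural killer (NK) cells, where each cell switches on its own random subset of the genes. Most carry an inhibitory tail, whereas a few, among them the products of Klra4 (Ly49D) and Klra8 (Ly49H), have none and signal through the adaptor DAP12, encoded by Tyrobp. In the thymus, Ly49 receptors appear on mature iNKT1 cells, the interferon-gamma-producing branch of the lineage.

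The members had the marks of iNKT1 cells. Every member held CD3 UMIs, and all 12 iNKT1 markers checked, among them Tbx21, Il2rb and Klrb1c, reached 5 CPM (counts per 1000000 UMIs, summed over the cells of a library) in every library. The summed iNKT1 markers lay at 6580 to 7637 CPM. Of the 10 iNKT17 markers none reached 5 CPM in all libraries, and Il17a was at 0. NK cells are the other thymic cells that could hold Ly49 transcripts: in members 3 of 8 NK markers reached 5 CPM in all libraries, the list summed to 64.6 to 84.0 CPM, and its defining gene Ncr1 lay at 0.891, 0.395, 1.95 and 0.278 CPM. Markers of double-positive (DP) thymocytes summed to 0.223 to 5.19 CPM, with Rag1, a gene of the rule, at 0. Markers of gamma-delta T cells summed to 0.464 to 1.53 CPM and of CD8 T cells to 0.223 to 1.62. Other lists were higher: iNKT2 markers summed to 354 to 514 CPM, with 4 of 10 at 5 CPM in all libraries, and iNKT0 markers to 190.0 to 314, with 3 of 8. B cell markers summed to 82.3 to 99.5 CPM, with 1 of 5 at 5 CPM and Cd79a, a gene of the rule, at 0, and myeloid markers to 75.2 to 98.6, with 1 of 9. Undetected cells, which met the rest of the rule with none of the 6 genes, held 515 to 735 CPM of iNKT2, 287 to 354 of iNKT0, 88.4 to 105 of B cell and 89.0 to 107 of myeloid markers. Their iNKT1 markers summed to 5778 to 7137 CPM, with all 12 at 5 CPM in every library, so these marks were not particular to members. NK markers summed to 31.4 to 54.3 CPM in undetected cells, where Ncr1 was at 0. At least 2 of the 8 NK markers were detected in 2.78%, 5.48%, 3.89% and 7.78% of members. In undetected cells that share was 0.624%, 0.881%, 0.390% and 2.12%.

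The libraries differed in ways that touch the results. Members held 4487723, 17699277, 3084233 and 10786140 UMIs in total, and a median of 4987.5, 6855.5, 4948 and 7956 UMIs per cell, so the libraries numbered 2 were the deeper ones in both genotypes. Ddx3y, a gene of the Y chromosome, stood at 68.9, 0.113, 81.1 and 0.0927 CPM in members, and Xist, a transcript of female cells, at 0.223, 560, 0 and 554. By these transcripts libraries 1 of both genotypes were male and libraries 2 female, so sex and depth cannot be told apart here. Values within a number are therefore given beside the genotype differences. Pairs of libraries shared 10 to 27 cell barcodes, 102 in all, of which 3 were members. Among genes at 20 CPM or more in all Nkg7-positive cells that met the rest of the rule, only Klra4 in ACC1 KO 1 stood at least 10-fold apart from all other libraries.

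The Klra genes lie side by side on chromosome 6. From Klra17 to Klra1 the cluster runs over chr6:129831154-130386874 of GRCm38 on the minus strand and holds 13 annotated genes, 3 of them pseudogenes. The promoters of several of these genes share a stretch just upstream of the start, and it is shown here because TCF1, the product of Tcf7, is known to be needed for normal expression of some Ly49 receptors in NK cells. The sequences are from RefSeq (GRCm38.p6), minus strand, written 5′ to 3′. Capitals mark a match to a TCF/LEF word, which is CAAAG after any 2 letters that are each A or T, on either strand; only 1 such word can match at a position.
Klra6 (chr6:130027036-130027078): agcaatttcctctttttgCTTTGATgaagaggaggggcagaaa
Klra7 (chr6:130233374-130233416): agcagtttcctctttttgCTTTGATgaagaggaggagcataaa
Klra9 (chr6:130193113-130193155): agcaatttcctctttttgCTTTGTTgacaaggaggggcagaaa
Klra5 (chr6:129913277-129913319): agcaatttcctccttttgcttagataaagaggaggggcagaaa
Klra4 (chr6:130067313-130067355): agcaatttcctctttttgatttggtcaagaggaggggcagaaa
Klra8 (chr6:130129941-130129983): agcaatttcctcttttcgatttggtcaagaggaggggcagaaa
Klra3 (chr6:130337627-130337650): agcaatttcctctttttgctttgg
The stretch begins 124 bases upstream of the annotated start of Klra6, 43 of Klra9, 95 of Klra5 and 84 of Klra4. It begins 94 bases upstream of 1 of the 2 annotated starts of Klra7 and was not found in the window of the other. For Klra8, which also has 2 annotated starts, it begins 85 or 148 bases upstream. For Klra3 it begins 24 bases upstream, and the window ends before the stretch does. Klra6, Klra7 and Klra9 hold a TCF/LEF word at the same place in it, and Klra5, Klra4, Klra8 and Klra3 do not. Klra17 and Klra2, not printed here, hold the stretch without the word. Outside the stretch, Klra7 holds a word 121 bases upstream of the same start and another 247 bases upstream of its other start. Such a word occurs in 14.8% of all 32851 mouse promoter windows of 250 bases. The stretch was not found in the windows of Klra1 and Klra10.

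Klra9, which encodes the inhibitory receptor Ly49I, was detected in 95.7%, 97.5%, 97.7% and 96.3% of members. Its summed level in members was 1073, 1003, 1109 and 817 CPM. The inhibitory Klra7 (Ly49G) was detected in 65.4%, 69.9%, 74.3% and 70.8% of members. Klra9 was thus in nearly every member and Klra7 in most members of all 4 libraries. Among all Nkg7-positive cells that met the rest of the rule, Klra9 was found in 54.0%, 73.3%, 52.2% and 59.8%, at median depths of 4659, 6265.5, 4463 and 7274.5 UMIs. In DP thymocytes, which should lack it, the share was 2.74%, 6.67%, 6.88% and 6.59%, at median depths of 2340, 2996, 4393.5 and 3425. These positive DP cells numbered 6, 5, 15 and 6 and held 19, 27, 74 and 19 Klra9 UMIs. Whether those UMIs came from free RNA or from mixed barcodes was not tested. In B cells, which should also lack it, the share was 4.90%, 29.4% (5 of only 17 cells), 9.02% and 2.5%, at median depths of 4711, 8169, 3413 and 6025.

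Klra1, which encodes the inhibitory Ly49A, had a different pattern in 1 library. It was detected in 67.4%, 66.5%, 42.8% and 64.6% of members, while a positive member held 4.02, 3.95, 7.21 and 3.90 of its UMIs. ACC1 KO 1 therefore had the lowest share of Klra1-positive members and the highest count in each. Its summed level, 479, 333, 514 and 276 CPM, overlapped between the genotypes. Klra5 (Ly49E) was found in 37.2%, 38.1%, 52.9% and 39.7% of members, highest in ACC1 KO 1. Klra6 (Ly49F) was found in 33.2%, 40.4%, 21.2% and 35.2%, lowest in ACC1 KO 1. Klra10 was found in 36.7%, 36.8%, 41.6% and 33.0%, with the genotypes overlapping.

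**Figure D1:**
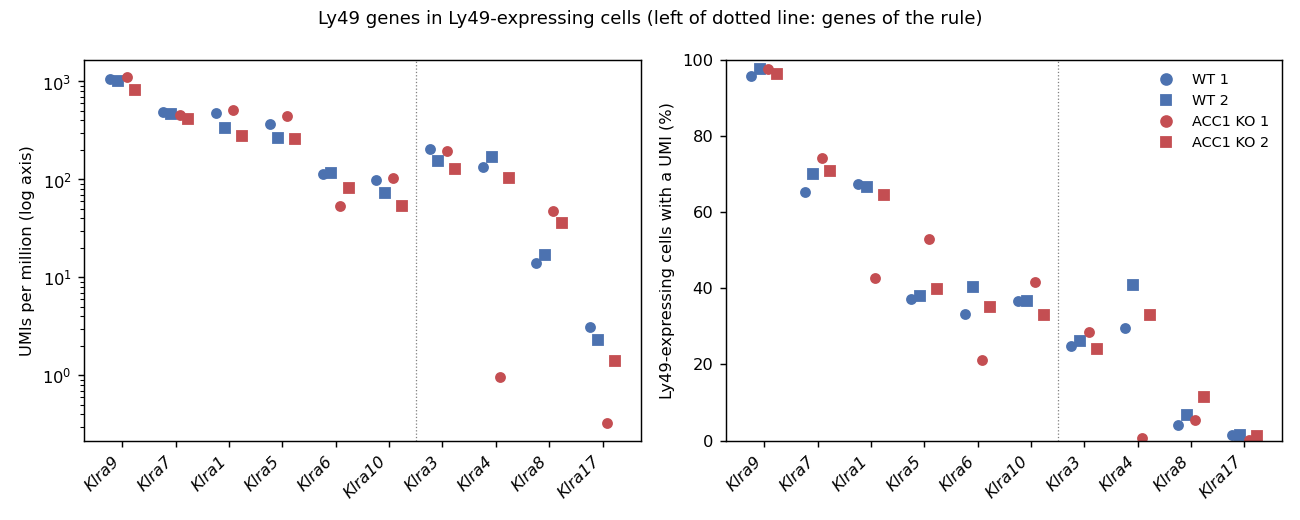
Ly49 genes in members, with 1 point per library: the summed level in CPM on a log axis (left panel) and the percentage of members with at least 1 UMI (right panel), the genes of the rule left of the dotted line. Klra9 lay between 95.7% and 97.7% in all libraries, and the shares of Klra1, Klra6 and Klra4 were lowest in ACC1 KO 1.

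Klra4, which encodes the activating Ly49D and was no part of the rule, was nearly missing from ACC1 KO 1. Its level in members was 133 CPM in WT 1, 169 in WT 2, 0.973 in ACC1 KO 1 and 103 in ACC1 KO 2. The ACC1 KO 1 value rested on 3 UMIs in 3 of 514 cells. Over all Nkg7-positive cells of the base the same library held 16 Klra4 UMIs, against 1420 in WT 1, 6126 in WT 2 and 2993 in ACC1 KO 2. The other activating gene, Klra8 (Ly49H), ran the opposite way, with 14, 16.8, 47.7 and 35.8 CPM in members; both knockout libraries lay above both wild-type ones. A Klra8-positive member held 1.91, 1.96, 5.25 and 2.82 Klra8 UMIs, again highest in ACC1 KO 1. The labels give no strain, and whether ACC1 KO 1 carries the same Ly49 alleles as the other libraries was not tested. The choice of members, their share and the Ly49 levels in that library all rest on counts of these genes, so the share and the genotype values of Ly49 and lipid genes are also given without it.

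Some of these counts are uncertain because the genes have near-identical ends, and 3′ reads see only the end of a transcript. Of the 50-base windows in the last 400 bases of the transcripts, Klra9 shared 46.4% exactly with another Ly49 gene or pseudogene, Klra10 52.1%, Klra7 35.3%, Klra3 33.9% and Klra8 15.7%. The gene that shared most with Klra7 was the pseudogene Klra13-ps. Klra6 shared 3.13%, and Klra1, Klra5 and Klra4 shared none. Counts of Klra9, Klra10, Klra7, Klra3 and Klra8 are therefore uncertain. Whether reads from shared windows were lost or given to another gene was not tested.

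Most members sat at the threshold of the rule. Cells with exactly 3 of the 6 genes made up 70.6%, 62.3%, 74.7% and 67.8% of members, and cells with all 6 numbered 2, 24, 4 and 6. The set of Klra1, Klra7 and Klra9 was held by 17.6%, 15.7%, 15.6% and 19.7% of members. In ACC1 KO 1 the set of Klra5, Klra7 and Klra9 was more frequent, at 18.5%. Between 32 and 40 sets of genes were seen per library, so no single set defined the cells.

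To compare how often genes were found together at 1 depth, each Nkg7-positive cell was thinned to 2000 UMIs and the share of cells with both genes was divided by the share expected from the single genes. This ratio was above 1 in all 4 libraries for 13 of the 15 pairs of the 6 genes, with a median of 1.53 over pairs and libraries and a range of 0.934 to 3.18. Klra6 and Klra7 had ratios of 2.06 to 3.18, Klra6 and Klra10 1.41 to 3.10, and Klra1 and Klra6 2.11 to 2.54. Klra9 had ratios of 1.28 to 1.84 with Klra6 and of 1.36 to 1.75 with Klra7. High ratios were thus seen both for genes that hold the promoter stretch shown above and for genes that lack it. Klra7 was also found together with Fcer1g, with ratios of 1.54 to 1.79, whereas Klra3 and Fcer1g stood at 0.972 to 1.10. Doublets were kept in these ratios. Cells of 1 library share their library, and no p is given for the ratios.

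The first comparison asked whether members were as frequent in the knockout as in wild-type. Members made up 19.4% (95% exact Clopper-Pearson interval 18.2 to 20.6) of the Nkg7-positive cells in WT 1 and 26.8% (25.9 to 27.8) in WT 2. They made up 11.1% (10.2 to 12.1) in ACC1 KO 1 and 18.3% (17.4 to 19.3) in ACC1 KO 2; the intervals cover counting error only. The mean was 23.1% ± 5.26 (SD, n = 2) in wild-type and 14.7% ± 5.08 (SD, n = 2) in the knockout. The groups did not overlap, but 18.3% and 19.4% lay next to each other, and the exact two-sided permutation test gave p = 0.333333, the smallest that 2 libraries against 2 allow. Within number 1 the knockout share was 0.574 of the wild-type share, and within number 2 it was 0.683. Without ACC1 KO 1 the difference was -4.78 percentage points instead of -8.37, and without WT 2 it was -4.66.

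**Figure D2:**
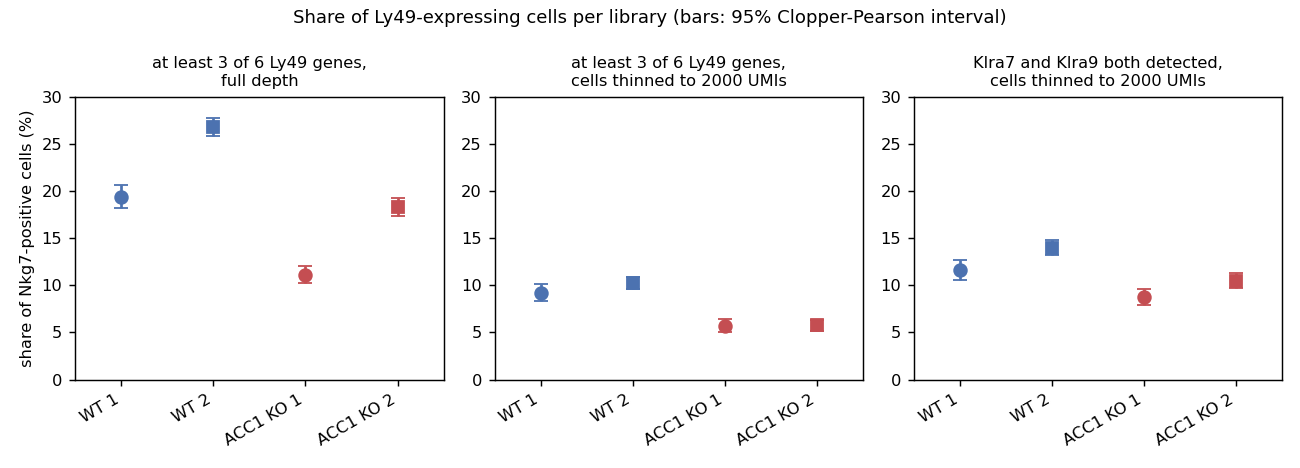
Percentage of Nkg7-positive cells in each library with at least 3 of the 6 Ly49 genes at full depth (left), the same after thinning to 2000 UMIs (middle), and with both Klra7 and Klra9 after thinning (right), with bars for 95% Clopper-Pearson intervals. Both knockout libraries lay below both wild-type libraries in each panel, at 5.68% and 5.74% in the middle one.

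Depth moved these shares, because a deeper cell shows more genes. With each cell thinned to 2000 UMIs the shares were 9.20% in WT 1, 10.2% in WT 2, 5.68% in ACC1 KO 1 and 5.74% in ACC1 KO 2. The mean was 9.72% ± 0.743 (SD, n = 2) against 5.71% ± 0.0451 (SD, n = 2), a ratio of 0.588 that was 0.618 within number 1 and 0.561 within number 2. Without ACC1 KO 1 the thinned difference was -3.98 percentage points, against -4.01 with it. The share of cells with both Klra7 and Klra9 was 18.3%, 25.5%, 14.5% and 20.3%, with the genotypes overlapping, and 11.6%, 14%, 8.70% and 10.5% after thinning, without overlap. Gates of at least 2 genes (41.6%, 54.2%, 30.9% and 43.4%) and of at least 4 genes (5.70%, 10.1%, 2.81% and 5.90%) overlapped between the genotypes at full depth. Single genes in thinned Nkg7-positive cells behaved unequally: Klra6 was found in 4.51%, 5.99%, 1.25% and 3.52%, Klra1 in 18.0%, 16.9%, 8.34% and 13.7%, and Klra9 in 45%, 59.1%, 46.0% and 44.5%.

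The second comparison set the members of each library against the 6250 Nkg7-positive cells of the same libraries in which none of the 6 genes was detected. These numbered 1282, 1476, 1795 and 1697 by library. The 12549 cells with 1 or 2 of the 6 genes were left out of both classes. Where results in thinned cells are given, both classes were chosen anew on the thinned counts, with 351, 843, 237 and 348 members. A cell whose Ly49 UMIs were lost in thinning could then count as undetected, so these are not the same cells at lower depth. Summed UMIs were tested with edgeR's quasi-likelihood test with library as a term, and p-values were adjusted over all 11515 genes. Of these genes 749 (6.5%) were higher in members and 693 (6.02%) were lower. Members had more UMIs per cell: their medians were 4987.5, 6855.5, 4948 and 7956, against 4470.5, 5903.5, 4288 and 6944. With comparison cells matched on UMIs, 483 genes were higher and 460 lower, and without WT 2, which held the most member UMIs, 459 and 435. Matching took the undetected cell nearest in UMIs to each member, and a cell could be taken more than once. By library 495, 901, 384 and 690 distinct cells were taken, so the matched sums count some UMIs repeatedly. Transcripts of 17 genes of other iNKT classes were present in 19.7%, 18.1%, 21.2% and 17% of members and in 49.8%, 44.6%, 44.0% and 35.4% of undetected cells. Without such cells, 471 genes were higher and 441 lower. Against all other Nkg7-positive cells, those with 1 or 2 of the 6 genes included, 564 genes were higher and 561 lower.

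Among the receptors outside the rule, both activating Ly49 genes were higher in members. Klra8 stood at 14, 16.8, 47.7 and 35.8 CPM in members and at 1.17, 3.84, 7.19 and 5.06 in undetected cells, a log2 difference of 2.70 ± 0.12 (SE, edgeR adjusted p = 3.47e-18). Klra4 differed by 2.69 ± 0.11 (SE, edgeR adjusted p = 2.2e-07), with 133, 169, 0.973 and 103 CPM against 14.2, 26.4, 0.365 and 19.4; in thinned cells the difference was 1.56. Members were higher in WT 1, WT 2 and ACC1 KO 2; in ACC1 KO 1 each class held 3 UMIs, and no direction can be read there. Klra3 (Ly49C), with 204, 153, 196 and 128 CPM against 106, 133, 180 and 163, did not pass (0.19 ± 0.25, edgeR adjusted p = 0.783), and members were lower in ACC1 KO 2. In cells thinned to 2000 UMIs it passed, at 0.34 (edgeR adjusted p = 0.00416). Counts of Klra3 and Klra8 carry the doubt about near-identical ends given above.

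Other lectin receptors of NK cells were higher as well: 7 of the 11 tested rose in members and none fell, with a median log2 difference of 0.58 beside 0.00 over all genes tested. Of all genes tested 6.5% rose and 6.02% fell. Klre1, whose product pairs with Klri proteins to form NK receptors, stood at 378, 337, 473 and 350 CPM in members against 92.0, 72, 143 and 121. Its log2 difference was 1.87 ± 0.16 (SE, edgeR adjusted p = 0.0101). The adjusted p was 0.0644 with WT 1 left out and 0.0692 with ACC1 KO 1 left out. Klri2, its partner chain, stood at 80.0, 66.0, 62.3 and 41.1 CPM against 35.3, 26.3, 32.0 and 26.5, a difference of 1.04 ± 0.11. Klrb1f rose by 1.76, Klrc3, of the NKG2 group, by 0.74 and Klrb1c, which encodes NK1.1, by 0.32 on the log2 scale. Klrc3 missed the threshold in thinned cells (edgeR adjusted p = 0.0569).

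The adaptors and kinases that serve such receptors were split. Of 25 tested genes of receptor adaptors and proximal signalling, 5 rose and 7 fell, beside 6.5% and 6.02% of all genes. Fcer1g, the gamma chain that couples Fc and NK receptors to signalling kinases (chr1:171229572-171234365), stood at 500.3 CPM in WT 1, 413 in WT 2, 521.7 in ACC1 KO 1 and 306 in ACC1 KO 2. In undetected cells it stood at 98.7, 84.9, 107 and 79.8, so the classes did not overlap. The log2 difference was 2.22 ± 0.06 (SE, edgeR adjusted p = 2.04e-08). Tyrobp, the adaptor of the activating Ly49 receptors, stood at 26.5, 34.6, 27.9 and 28.8 CPM against 10.7, 11.6, 8.65 and 10.3, a difference of 1.53 ± 0.09. It did not pass against UMI-matched cells (edgeR adjusted p = 0.180). Scimp, a transmembrane adaptor that binds Src kinases, differed by 2.24 ± 0.13 and the Src kinase Lyn by 1.55 ± 0.09. The T cell receptor kinase Fyn fell by 0.29.

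**Figure D3:**
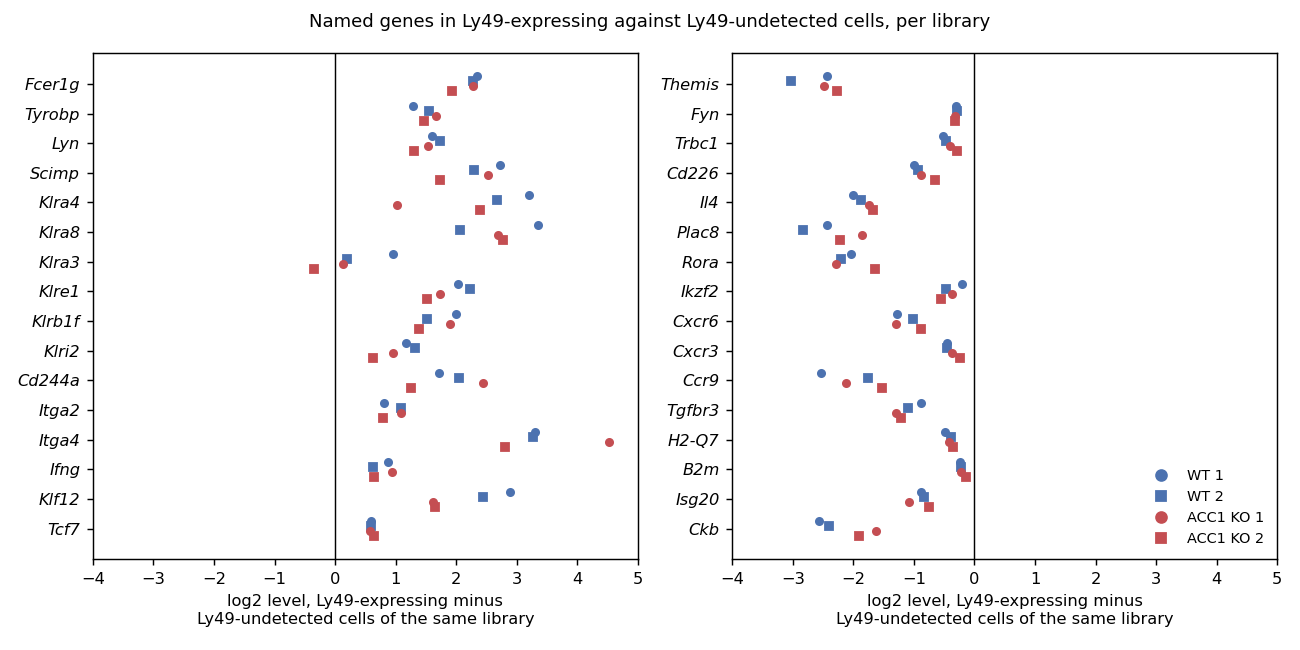
Difference in log2 level between members and undetected cells of the same library for named genes, with 1 point per library and a line at 0. Members were higher in all 4 libraries for each gene of the left panel except Klra3, which was lower in ACC1 KO 2, and Klra4, whose point for ACC1 KO 1 rests on 3 UMIs in each class, and lower in all 4 for each gene of the right panel.

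An integrin gene had the largest difference among the named genes. Itga4, the alpha-4 integrin chain that carries lymphocytes onto vessel walls (chr2:79255426-79333123), stood at 53.3, 58.0, 21.7 and 10.4 CPM in members and at 5.19, 5.81, 0.731 and 1.29 in undetected cells. Its log2 difference of 3.44 ± 0.13 (SE, edgeR adjusted p = 1.66e-18) held in all 4 libraries, although the level in both knockout libraries was below that of wild-type. Itga2 (CD49b), the integrin used to gate NK cells, rose by 0.96 and Cd244a (2B4), a receptor of the SLAM family, by 1.85. Of 11 NK cell markers tested, 7 rose and none fell, with a median of 0.35, beside 6.5% and 6.02% of all genes tested. The sphingosine receptor S1pr1, which guides exit from the thymus, rose by 0.69, though not in thinned cells (edgeR adjusted p = 0.394).

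Several chemokine receptors were lower in members. Cxcr6, which holds iNKT cells in liver and other tissues, stood at 291, 313, 176 and 206 CPM against 709.8, 635, 431 and 380.5, a difference of -1.09 ± 0.08 (SE, edgeR adjusted p = 0.000549). Ccr9, the thymic homing receptor of immature cells, stood at 4.01, 3.73, 3.89 and 3.99 CPM against 24.3, 13.2, 17.7 and 12, a difference of -1.93. Cxcr4 fell by 1.04, and Cxcr3 by 0.37, but Cxcr3 did not pass in thinned cells (edgeR adjusted p = 0.172). In the list of migration and adhesion genes, 10 of 29 rose and 7 fell, beside 6.5% and 6.02% of all genes tested.

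Among transcription factors, 10 of 41 rose and 10 fell, beside 6.5% and 6.02% of all genes tested. Tcf7, which encodes the TCF1 protein whose word is marked above, stood at 92.0, 80.6, 83.3 and 74.5 CPM in members and at 60.6, 53.4, 55.9 and 47.7 in undetected cells. The classes did not overlap, and the log2 difference was 0.62 ± 0.05 (SE, edgeR adjusted p = 2.18e-12). Klf12 stood at 20.1, 39.8, 19.1 and 55.7 CPM against 2.51, 7.13, 6.09 and 17.6, higher in members of every library, with the deeper libraries high in both classes. Rora, the nuclear receptor shared with innate lymphoid cells, fell by 2.03 ± 0.08, from 91.3, 76.6, 61.3 and 44.1 CPM in undetected cells to 22.1, 16.4, 12.3 and 13.9 in members. Bcl11b, which keeps T cell identity, fell by 0.32 and Ikzf2 by 0.41.

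Themis, which tunes receptor signals during selection, stood at 15.4, 8.02, 9.40 and 7.14 CPM in members against 84.6, 67.5, 54.0 and 35.1, a difference of -2.67 ± 0.10 (SE, edgeR adjusted p = 8.88e-15). Trbc1, a constant segment of the beta chain, fell by 0.41 but did not pass against UMI-matched cells (edgeR adjusted p = 0.0740). The glycoprotein Thy1 fell by 0.73 and the interleukin-2 receptor chain Il2ra by 1.69. Of 20 receptor chains and co-receptors, 6 rose and 6 fell, and of 30 genes of receptor signalling, 4 rose and 2 fell, beside 6.5% and 6.02% of all genes; neither list moved in 1 direction.

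Ifng, the cytokine of iNKT1 cells, stood at 60.2, 92.3, 86.2 and 162 CPM in members and at 32.7, 59.4, 44.7 and 104 in undetected cells, a difference of 0.73 ± 0.05. Il4, the cytokine of the iNKT2 branch, stood at 27.9, 23.1, 22.7 and 18.9 CPM against 113, 85.4, 76.7 and 60.7, a difference of -1.83 ± 0.06 (SE, edgeR adjusted p = 1.29e-22). None of the 13 iNKT2 markers tested rose and 8 fell, with a median of -0.81, and Plac8 among them fell by 2.32. Of 16 iNKT1 markers, 5 rose and 3 fell, and Fasl was among those that fell (-0.30). The granule list had 4 of 19 genes higher and 3 lower, and the cytokine and chemokine list 4 of 17 higher and 7 lower. Beside these 4 lists, 6.5% of all genes tested were higher and 6.02% lower. Cd226 and Tgfbr3, an activating receptor and a co-receptor for TGF-beta, fell by 0.85 and 1.10.

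The ligand side of the Ly49 system was also measured in the same cells. Of 22 genes of MHC class I and CD1d presentation none rose in members and 19 fell, with a small median of -0.18. H2-Q7, a non-classical class I gene, stood at 458, 356, 420 and 296 CPM in members against 645, 467, 560 and 377, a difference of -0.40 ± 0.03. The classical gene H2-K1 differed by -0.26, the light chain B2m by -0.19 and the proteasome subunit Psmb9 by -0.34. H2-K1 did not pass against UMI-matched cells (edgeR adjusted p = 0.419). Of 15 interferon response genes tested none rose and 10 fell, with a median of -0.37, among them Isg20 (-0.83). Cells with more than 2 of 6 interferon genes had been left out of both classes. Beside these lists, 7 of 18 genes of RNA quality and handling rose and 1 fell, and of all genes tested 6.5% rose and 6.02% fell. The part of RNA quality in the differences was not tested.

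Other genes with large differences had varied roles. Plce1 (1.76), a phospholipase, and Atp1b1 (1.63), a sodium pump chain, were higher in all 4 libraries, as were the tetraspanin Cd9 (1.35), the signalling inhibitor Spry2 (1.21) and the protease receptor F2rl1 (1.15). Ckb, a creatine kinase, stood at 8.47, 8.19, 8.75 and 4.08 CPM against 51.4, 44.3, 27.4 and 15.8, a difference of -2.27 ± 0.11. Atp8a2, Ext1, Gpr34, Tesc and Airn were lower by 1.04 to 1.27 on the log2 scale.

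The values moved with the number of Ly49 genes, although cells with more genes were also deeper. Fcer1g went from 98.7, 84.9, 107 and 79.8 CPM in cells with none of the 6 genes to 596, 429, 532 and 389 in cells with 5 or 6. Klre1 went from 92.0, 72, 143 and 121 to 429, 391, 419.8 and 387. In the same direction of counting Cxcr6 went from 709.8, 635, 431 and 380.5 to 204, 259, 219.7 and 185, and Rora from 91.3, 76.6, 61.3 and 44.1 to 5.99, 15.4, 0 and 9.30. Fcer1g and Klre1 were higher, and Cxcr6 and Rora lower, at the upper end in every library. Cxcr6, Il4, Rora and Themis fell most between cells with none and cells with 1 gene, both outside the rule, in every library. Themis stood at 31.2, 22.9, 21.1 and 14.6 CPM in cells with 1 gene and at 19.1, 9.92, 6.31 and 9.30 with 3. Itga4 stood at 12.9, 8.09, 3.67 and 5.55 CPM with 1 gene and at 53.5, 47.2, 21.6 and 10.1 with 3. The cells with 5 or 6 genes were few: 48 in WT 1, 236 in WT 2, 23 in ACC1 KO 1 and 81 in ACC1 KO 2.

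**Figure D4:**
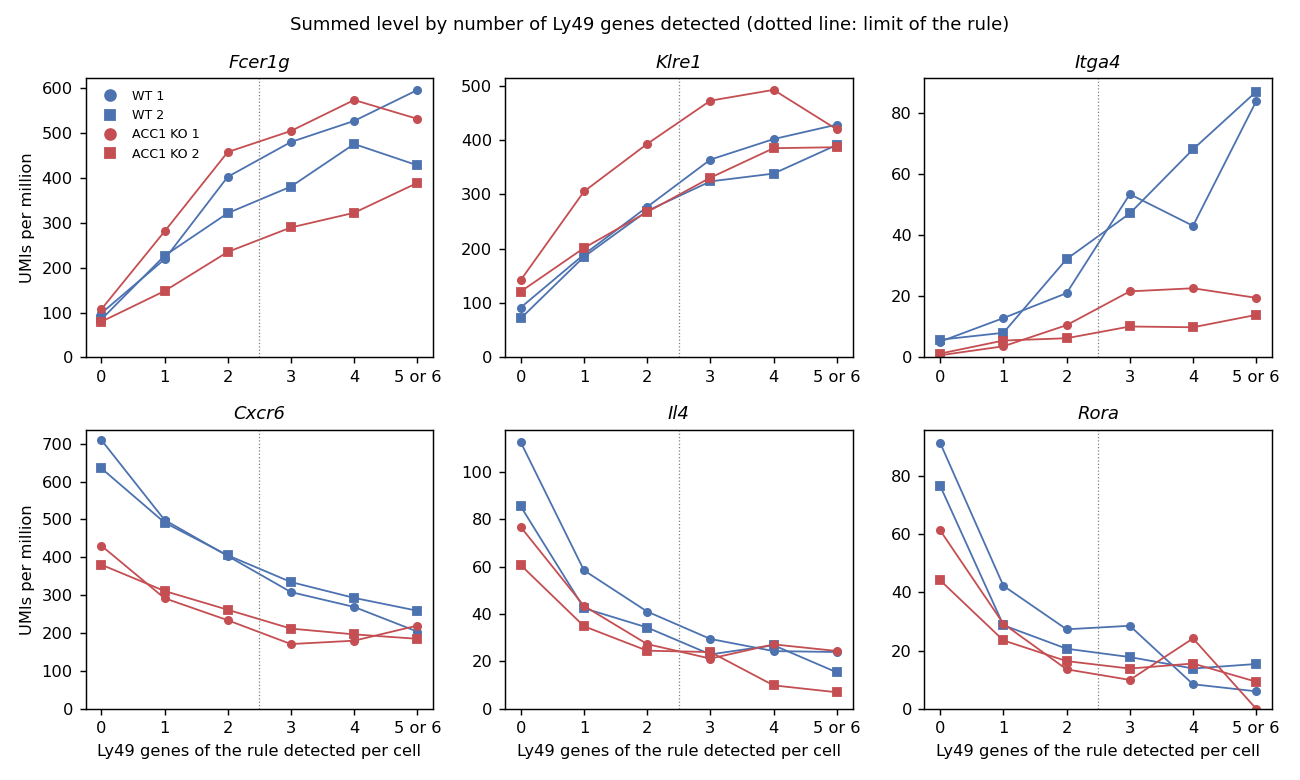
Summed level in CPM, on linear axes, of Fcer1g, Klre1, Itga4, Cxcr6, Il4 and Rora in Nkg7-positive cells grouped by the number of the 6 Ly49 genes detected, with 1 line per library and a dotted line at the limit of the rule. In all 4 libraries Fcer1g, Klre1 and Itga4 were higher, and Cxcr6, Il4 and Rora lower, in cells with 5 or 6 genes than in cells with none, but the steps between were not all in 1 direction.

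The third comparison asked how the members of knockout mice differed from those of wild-type mice. Of 11397 genes tested over the 4 sums of members, edgeR called 5 higher in the knockout (0.0439%) and 0 lower (0.0%), and 396 had an unadjusted p under 0.05 (3.47%). DESeq2 called 33 higher and 5 lower. Neither fit had a term for the number, so differences of sex and depth counted as spread between libraries. All 5 genes called by edgeR were genes of lipid synthesis. Without ACC1 KO 2 none of the 5 passed in edgeR, with an adjusted p of 0.0803 for Scd1 and Scd2. Without WT 1, WT 2 or ACC1 KO 1, edgeR called 25, 12 and 3 genes higher, the 3 including Scd1 and Scd2, with the lone library of a genotype taken to vary like the others. Acaca itself, on chr11:84129672-84401651, stood at 33.4, 31.1, 49.3 and 61.8 CPM in members. It did not pass (0.88 ± 0.19, edgeR adjusted p = 0.323), and since 3′ counts do not tell whether the removed exons were present, they are no check of the genotype.

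Scd1 and Scd2 make monounsaturated fatty acids from saturated ones. Scd1 was represented in members by 0 UMIs in WT 1, 1 in WT 2, 58 in ACC1 KO 1 and 177 in ACC1 KO 2, at 0, 0.0565, 18.8 and 16.4 CPM. The ratio of summed levels was 376 (edgeR adjusted p = 0.00278), but with 1 wild-type UMI its counting interval ran from 66.8 to 14910. Scd1 passed the filter on low counts only through the knockout libraries. Scd2 stood at 31.9, 20.2, 225 and 241 CPM, a log2 difference of 3.28 ± 0.23 (SE, edgeR adjusted p = 0.00407) that was 2.81 within number 1 and 3.56 within number 2. Knockout and wild-type members did not overlap in either gene.

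Acsl3, which activates fatty acids, stood at 5.79, 5.14, 21.4 and 25.5 CPM, a log2 difference of 2.21 ± 0.23 (SE, edgeR adjusted p = 0.0413). Srebf1, the transcription factor of the fatty acid programme, stood at 22.5, 16.8, 61.3 and 61.7 CPM, and Fdps, an enzyme of the mevalonate pathway, at 16.3, 18.2, 53.8 and 60.1. Their differences were 1.75 ± 0.19 and 1.80 ± 0.19, with the same adjusted p. These 3 calls were less stable than those of Scd1 and Scd2: without ACC1 KO 1 the edgeR adjusted p was 0.0507 for Acsl3, 0.0895 for Srebf1 and 0.0677 for Fdps, and with a filter of 10 CPM it was 0.0924 for each. Fdps also missed the threshold with members of at least 2 Ly49 genes (edgeR adjusted p = 0.143), and Acsl3 with at least 4 (0.0579) and in thinned cells (0.117). Of 21 genes of fatty acid synthesis 4 passed and 12 were higher in both knockout libraries without overlap, and of 24 genes of cholesterol synthesis 1 passed and 21 were higher without overlap. No gene of either list was lower without overlap. Over all genes tested 7.91% were higher and 22.7% lower without overlap. The list medians were 0.54 and 0.89 on the log2 scale, beside 0.00 over all genes.

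**Figure D5:**
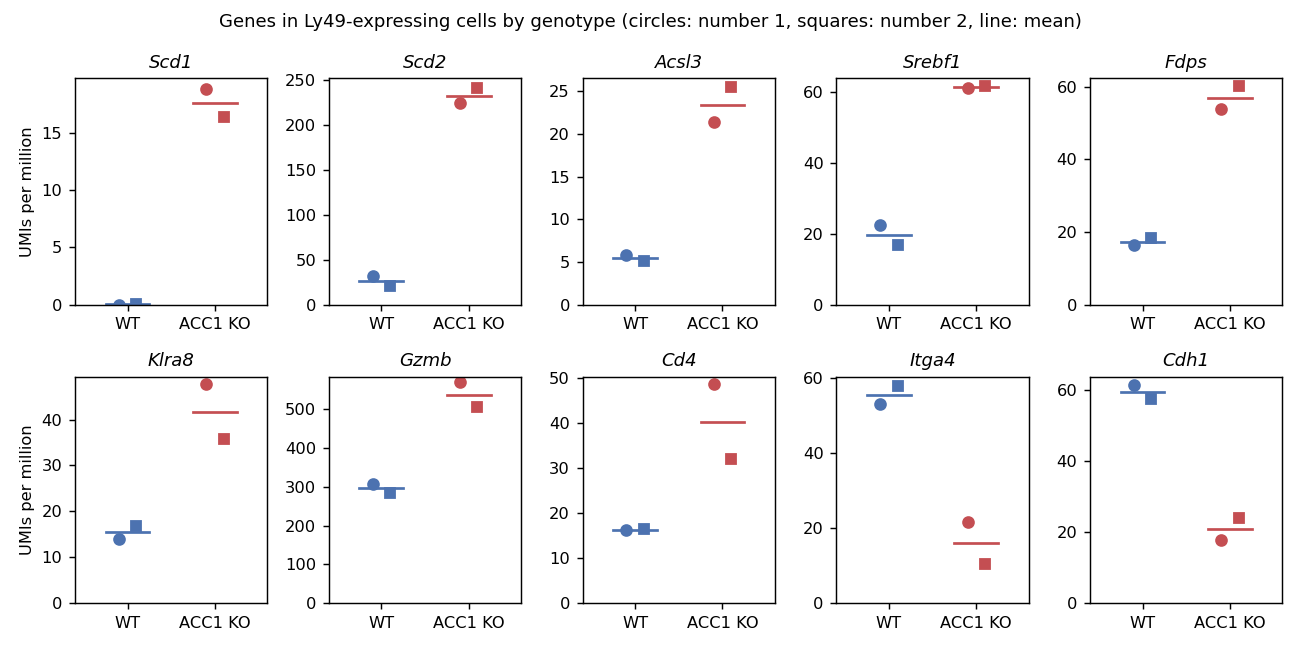
Summed level in CPM, on linear axes from 0, of 10 genes in the members of each library, with circles for libraries numbered 1, squares for libraries numbered 2 and lines for the genotype means. Scd1, Scd2, Acsl3, Srebf1, Fdps, Klra8, Gzmb and Cd4 were higher, and Itga4 and Cdh1 lower, in both knockout libraries, and of these 10 genes the first 5 passed in edgeR.

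Ly49 genes themselves did not pass between the genotypes. Within the rule, Klra6 (-0.65) and Klra7 (-0.04) were lower in both knockout libraries without overlap and the other 4 genes overlapped; this describes cells chosen by these genes. Klra8 was higher in both knockout libraries, with a log2 difference of 1.47 ± 0.22 (SE, edgeR adjusted p = 0.105, DESeq2 adjusted p = 0.000795). It was 1.75 within number 1 and 1.08 within number 2, and 1.30 without ACC1 KO 1 (edgeR adjusted p = 0.251). Klra4 did not pass (-1.34 ± 1.85, edgeR adjusted p = 1), with 1 knockout library at 0.973 CPM and the other at 103; without ACC1 KO 1 the difference was -0.44. Fcer1g, at 500.3, 413, 521.7 and 306 CPM, differed by -0.07.

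Several other genes did not overlap between the genotypes and did not pass in edgeR, although DESeq2 called most of them. Itga4 stood at 53.3 and 58.0 CPM in wild-type and at 21.7 and 10.4 in the knockout, a log2 difference of -1.81 ± 0.31 (edgeR adjusted p = 0.189, DESeq2 adjusted p = 0.000125). Cdh1, the adhesion protein E-cadherin, stood at 61.5 and 57.3 CPM against 17.8 and 23.9, a difference of -1.39 ± 0.20 (edgeR adjusted p = 0.105, DESeq2 adjusted p = 0.000769). Gzmb, the protease granzyme B, stood at 308 and 284 CPM against 570 and 507 (edgeR adjusted p = 0.233, DESeq2 adjusted p = 0.000931). Cd4 stood at 16.3 CPM in each wild-type library and at 48.6 and 31.9 in the knockout (edgeR adjusted p = 0.178, DESeq2 adjusted p = 0.00412). Pik3ip1, an inhibitor of PI3 kinase, stood at 38.8 and 32.4 CPM against 81.4 and 70.5 (edgeR adjusted p = 0.105, DESeq2 adjusted p = 0.000931). The NK receptor gene Cd160 stood at 103 and 85.5 CPM against 61.0 and 39.0 and was called by neither tool (edgeR adjusted p = 0.509, DESeq2 adjusted p = 0.250).

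Death genes did not pass. Bbc3, which encodes PUMA, differed by 0.92 and Pmaip1, which encodes NOXA, by 1.52, with edgeR adjusted p of 1 and 0.780. Of 28 genes of that list 5 were higher and 4 lower without overlap, beside 7.91% and 22.7% of all genes. None passed in edgeR, and DESeq2 called 1, Lpcat3. Lpcat3, which puts polyunsaturated chains into phospholipids, stood at 33.6, 31.1, 59.3 and 60.6 CPM and differed by 0.98 (edgeR adjusted p = 0.162, DESeq2 adjusted p = 0.0314).

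The last test asked whether the genotype difference was the same in members and in undetected cells. The interaction term passed for 51 of 12094 genes (0.422%): the difference was more positive in members for 13 (0.107%) and more negative for 38 (0.314%). After thinning to 2000 UMIs, with both classes chosen anew on fewer UMIs, none passed in edgeR, and 552 had an unadjusted p under 0.05. DESeq2 called 1 and 9. Each library moved these counts when it was left out: 39 and 79 passed in the absence of ACC1 KO 1, 8 and 16 in that of ACC1 KO 2, 5 and 9 in that of WT 1, and 0 and 11 in that of WT 2. The lipid genes of the third comparison had an interaction in 1 case: the Scd2 difference was larger in members by 0.48 ± 0.11 (SE, edgeR adjusted p = 0.0182), with 31.9, 20.2, 225 and 241 CPM in members and 37.4, 27.3, 205 and 220.1 in undetected cells. This call was lost with DESeq2 (adjusted p = 0.859), and in edgeR without WT 1 (0.247), WT 2 (0.894) or ACC1 KO 2 (0.0592), with at least 4 Ly49 genes (0.0896) and without cells of other iNKT classes (0.154). Scd1, Acsl3, Srebf1 and Fdps did not pass. Against all other Nkg7-positive cells in place of undetected ones, the interaction passed in edgeR for 1 gene in the positive and 10 in the negative direction. Of the 13 genes named in the text for a passed term, 12 missed the threshold there, all but Slc9a7.

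Itgb3, the beta-3 integrin chain, had the largest positive term among the named genes, 1.13 ± 0.19 (SE, edgeR adjusted p = 0.000611). It stood at 9.14, 6.16, 22.4 and 21.6 CPM in members and at 29.8, 26.2, 49.7 and 34.3 in undetected cells, so it was lower in members of every library and the log2 distance was smaller in the knockout. It missed the threshold when WT 2 (edgeR adjusted p = 0.684) or ACC1 KO 2 (0.177) was left out. The transcription factor gene Runx1 had a term of 0.58 ± 0.08, with 108, 124, 123 and 149 CPM in members against 200, 215, 158 and 168. The genotypes overlapped in members, whereas in undetected cells both knockout libraries were lower. Without WT 2 the edgeR adjusted p of Runx1 was 0.0581.

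NK receptor genes were among those with a negative term. Klrc1, which encodes NKG2A, had a term of -0.79 ± 0.10 (SE, edgeR adjusted p = 4.32e-06), with 79.6, 52.4, 84.9 and 41.3 CPM in members and 71.0, 48.9, 132 and 65.7 in undetected cells. Klre1 had a term of -0.53 ± 0.08. Both were chosen for the text after their values were seen. Tnfsf8, the CD30 ligand, had a term of -1.02 ± 0.17, with 32.8, 26.2, 58.7 and 45.9 CPM in members and 10.0, 10.1, 36.5 and 35.5 in undetected cells. It missed the threshold without WT 1 (edgeR adjusted p = 0.215), without WT 2 (0.0866) and without cells of other iNKT classes (0.275). Klre1 missed it without WT 2 (0.412) and without cells of other iNKT classes (0.172). For each of the 3 genes the difference of knockout minus wild-type was larger in undetected cells than in members. Against all other Nkg7-positive cells in place of undetected ones, all 3 missed the threshold in edgeR. The terms were then -0.29 for Klrc1 (edgeR adjusted p = 0.167), -0.079 for Klre1 and -0.29 for Tnfsf8.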

How the data were processed

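Thymic iNKT cells from 4 mouse libraries (2 wild-type, 2 ACC1 knockout) were analysed from filtered gene-by-cell matrices of raw UMI counts deposited by the authors, made with Cell Ranger 7.0.0 on mm10 per the submitters' processing notes. Groups came from the sample titles. Cells with at least 1000 UMIs, at least 500 genes and under 10% mitochondrial UMIs were kept. The members, gene lists and tests were chosen with earlier results of these data known. UMIs were summed per library and class and tested with edgeR 4.0.16 (quasi-likelihood F test, TMM, filterByExpr, R 4.3.3), with Benjamini-Hochberg adjustment over all genes at a threshold of 0.05 and the 22 genes of the rule left out of the class counts. DESeq2 1.42.0 was an alternative. Named genes were those called with the largest fold, at a mean of at least 20 CPM and with 1 direction in all libraries (up to 12 per direction between classes, 10 between genotypes and 5 for the interaction), up to 4 per list, and the Ly49 genes, Fcer1g and Acaca.

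Doublets were kept. In an alternative, the top 0.8% per 1000 cells by a simulated doublet score were removed, 515 members among them. This took 6.44%, 12.7%, 9.53% and 11.1% of members by library. Of all cells that met the quality limits it took 4.36%, 7.91%, 5.02% and 6.83%, so members were removed more often in every library. Other alternatives were size factors, no low-count filter, a 10 CPM filter, other gates, thinning to 2000 UMIs, a 5% mitochondrial limit, each library left out, no library term, a replicate block, comparison cells matched on UMIs and all other Nkg7-positive cells as comparison. Chosen after seeing the data were leaving out cells with transcripts of other iNKT classes and the gate of Klra7 with Klra9. Some items are not reported here. Shares have exact 95% intervals. Promoter sequences are RefSeq entries of GRCm38.p6. Members held 3084233 to 17699277 UMIs per library, and in the smallest of these sums 1 CPM stands for 3.08 UMIs. In simulated counts the genotype test recovered 7.46% of 1.5-fold, 55.2% of 2-fold and 98.5% of 4-fold changes (11178 genes), and the class test all of them (11409 genes). Calls of unchanged genes numbered 21 for the genotype test, 11 for the class test and 12 for the interaction.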

Additional observations from a re-analysis of the deposited data

Results flagged for a closer look

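The genotype difference of 10 named genes was not the same in members and in undetected cells by the interaction term of edgeR's quasi-likelihood test over 12094 genes. The difference was more positive in members for Itgb3 (1.13 on the log2 scale, adjusted p = 0.000611), Setbp1 (0.67, adjusted p = 0.000611), Ramp1 (0.62, adjusted p = 0.00341), Runx1 (0.58) and Ccr2 (0.54, adjusted p = 0.0173). It was more negative for Tnfsf8 (-1.02), Gas7 (-0.997, adjusted p = 0.0239), Rap1gap2 (-0.97), Klf12 (-0.94, adjusted p = 0.0165) and Slc9a7 (-0.92). Setbp1 stood at 51.7, 30.2, 58.4 and 37.3 CPM in members of WT 1, WT 2, ACC1 KO 1 and ACC1 KO 2 and at 102, 70.6, 85.3 and 49.1 in undetected cells. Slc9a7, a sodium-proton exchanger, stood at 55.7, 64.9, 51.2 and 76.6 CPM in members and at 13.9, 18.8, 24.2 and 41.2 in undetected cells. For each of the 10 genes the sign was the same within number 1 and within number 2. Against all other Nkg7-positive cells in place of undetected ones, all of the 10 but Slc9a7 missed the threshold in edgeR. Without WT 2, 9 of the 10 missed the threshold, with adjusted p from 0.0581 for Runx1 to 0.684 for Itgb3, and Gas7 missed it without WT 1 (0.228) and without ACC1 KO 2 (0.0752). Of the 13 genes named in the text for a passed term, DESeq2 called 3. It did not call 4, which were Scd2, Setbp1, Ramp1 and Ccr2, and it gave no adjusted p for the others. No interaction term passed once cells were thinned to 2000 UMIs and both classes were chosen anew on the thinned counts, which also left fewer members.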

How the results depend on the processing

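Between members and undetected cells, 749 genes were higher and 693 lower. The counts were 347 and 319 with DESeq2, 276 and 254 in thinned cells, 471 and 441 without cells holding transcripts of other iNKT classes, 483 and 460 against UMI-matched cells, and 35 and 38 with no library term. Leaving out 1 library gave 459 to 735 higher and 435 to 696 lower. The Klra3 difference changed sign against all other Nkg7-positive cells (-0.041), without cells of other classes (-0.044) and without WT 1, with a range of -0.010 to 0.40 when 1 library was left out. Between genotypes, the 5 higher and 0 lower genes became 33 and 5 with DESeq2, 82 and 36 with no filter, 1 higher at a mean of 10 CPM, 8 higher with at least 4 Ly49 genes, and 9 and 2 in thinned cells. Leaving out 1 library gave 0 to 25 higher and 0 to 4 lower. Klra3 changed sign with at least 2 Ly49 genes (0.021), with at least 4 (0.13), and without WT 1 or ACC1 KO 2, with a range of -0.35 to 0.19 when 1 library was left out; Fcer1g did so without the same libraries, from -0.45 to 0.24. For the interaction, 13 and 38 became 1 and 9 with DESeq2, 24 and 56 with no filter, 0 and 0 in thinned cells, 1 and 10 against all other Nkg7-positive cells, and 12 and 18 without cells of other classes. Leaving out 1 library gave 0 to 39 and 9 to 79. The difference in the share of members ranged from -12.1 to -4.66 percentage points when 1 library was left out. The cause of these changes was not tested. The labels do not say that a number marks a pair, and with 2 pairs the numbers were not taken as pairing. By Ddx3y and Xist the number goes with sex, and it also goes with depth. The main genotype fit has no term for either, so both count there as spread between libraries. The deviations of WT 1 and ACC1 KO 1 from their genotype means correlated at 0.599 over 11397 genes. With the number as a replicate block, 328 genes were higher and 188 lower between genotypes, among them Itga4, Cdh1, Gzmb, Cd4, Pik3ip1, Cd160, Klra8, Klra4, Acaca, Bbc3 and Pmaip1, which did not pass without it, and 33 and 74 had an interaction. Depth limited the rare genes: Klra2 had at most 4 UMIs in members of any library.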
